A study of Mus musculus with 10 samples.

Results

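Glutathione transferases, UDP-glucuronosyltransferases and sulfotransferases attach glutathione, glucuronic acid or sulfate to drugs, pollutants, steroids, bile acids and hormones, and their transcripts were followed in mouse liver. A gene was included when its platform symbol read Gst with a class letter (a, k, m, o, p, t or z) and a digit, Ugt1, Ugt2 or Ugt3 with a letter, or Sult with a digit. Probe sets that carried several symbols and pseudogenes were left out, and the brightest probe set stood for a gene. This gave 49 genes of the 22180 with such a probe set, namely 18 glutathione transferases, 10 UDP-glucuronosyltransferases and 21 sulfotransferases. Of these, 40 exceeded the array's median intensity on 2 or more arrays and were tested (16, 9 and 15 by family), as did 13942 genes in all. There were 34 above the median on all 10 arrays, while Sult1e1, Sult2a1, Sult2a2, Sult2a4, Sult2a5 and Sult2a7 were above it on some arrays only.

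The 10 livers came from female BALB/cByJ mice aged 3 months, either Pml wild type or Pml knockout. Pml encodes the scaffold protein of PML nuclear bodies; the labels call the knockout Pml KO and say nothing of the allele. Mice had food at will (fed) or none for 6 h with free water (fasted), as the sample titles and source names state. The treatment text of each of the 10 samples, the fed ones too, speaks of food being withheld, so feeding was taken from titles and source names alone. The groups held 2 fed wild type, 2 fed knockout, 3 fasted wild type and 3 fasted knockout arrays, each hybridised with RNA of 1 liver sample. No label says whether each sample was a separate animal, so each p-value reflects the spread among samples that may differ in part for technical reasons. All values below are log2 of the deposited intensity, and the number of arrays limits their precision.

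Conjugation makes a fat-soluble compound water-soluble, so that it can leave the hepatocyte into bile or blood. Glutathione transferases use glutathione on reactive electrophiles, UDP-glucuronosyltransferases of the endoplasmic reticulum use UDP-glucuronic acid, and cytosolic sulfotransferases use the activated sulfate PAPS. Hepatocytes express all of these families strongly, and several sulfotransferases, among them Sult2a1, Sult2a2 and Sult3a1, are known to be far more abundant in female than in male mouse liver.

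The targeted gene followed the labels: Pml lay between 7.50 and 8.37 on the 5 wild type arrays and between 6.05 and 6.91 on the 5 knockout arrays (two-sided exact permutation p = 0.00794). All 9 hepatocyte markers on the array were above its median on every array, and their summed intensity was 45710 to 48850. Neutrophil markers were above the array median on no array (0 of 8). Xist was high on every array and 3 transcripts of the Y chromosome were above the median on none, as the female label requires. The arrays of 2 fasted knockout samples stood apart from the third by clock genes, with Arntl at 4.60, 4.53 and 8.87, against 9.04 to 9.29 on the fasted wild type arrays. No label gives the hour of collection. Fed wild type replicate 1 stood apart for Sult2a1 and Sult2a2, as described with them. Transcript amounts of a whole liver cannot tell apart fewer cells of a type and less RNA per cell.

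Each gene has its own probes, so levels of different genes were not ranked by amount. The brightest glutathione transferase probe sets, by mean over 10 arrays, were those of Gstk1 (11.87), Gsta3 (11.48), Gstt1 (11.40), Gstp1 (11.02) and Gstm2 (10.75). Those of the UDP-glucuronosyltransferases were Ugt2b1 (12.48), Ugt2b34 (11.86), Ugt2b36 (11.63), Ugt3a2 (11.35) and Ugt2a3 (10.51). Among sulfotransferases they were Sult1a1 (11.23), Sult1d1 (11.05), Sult2a8 (10.94), Sult2a2 (9.77) and Sult3a1 (9.55). The 9 genes left untested averaged 2.56 to 5.15, and the highest single value among them was 6.10 for Ugt2b38 on an array of a fed knockout liver; the array medians lay between 5.44 and 5.57. The map of all 40 tested genes by array shows that most glutathione and glucuronide genes moved within a narrow band, while Sult2a1, Sult2a2, Sult2a5, Sult2a7, Sult3a1 and Sult3a2 spread over 2.59 to 14.97 log2 units.

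**Figure D1:**
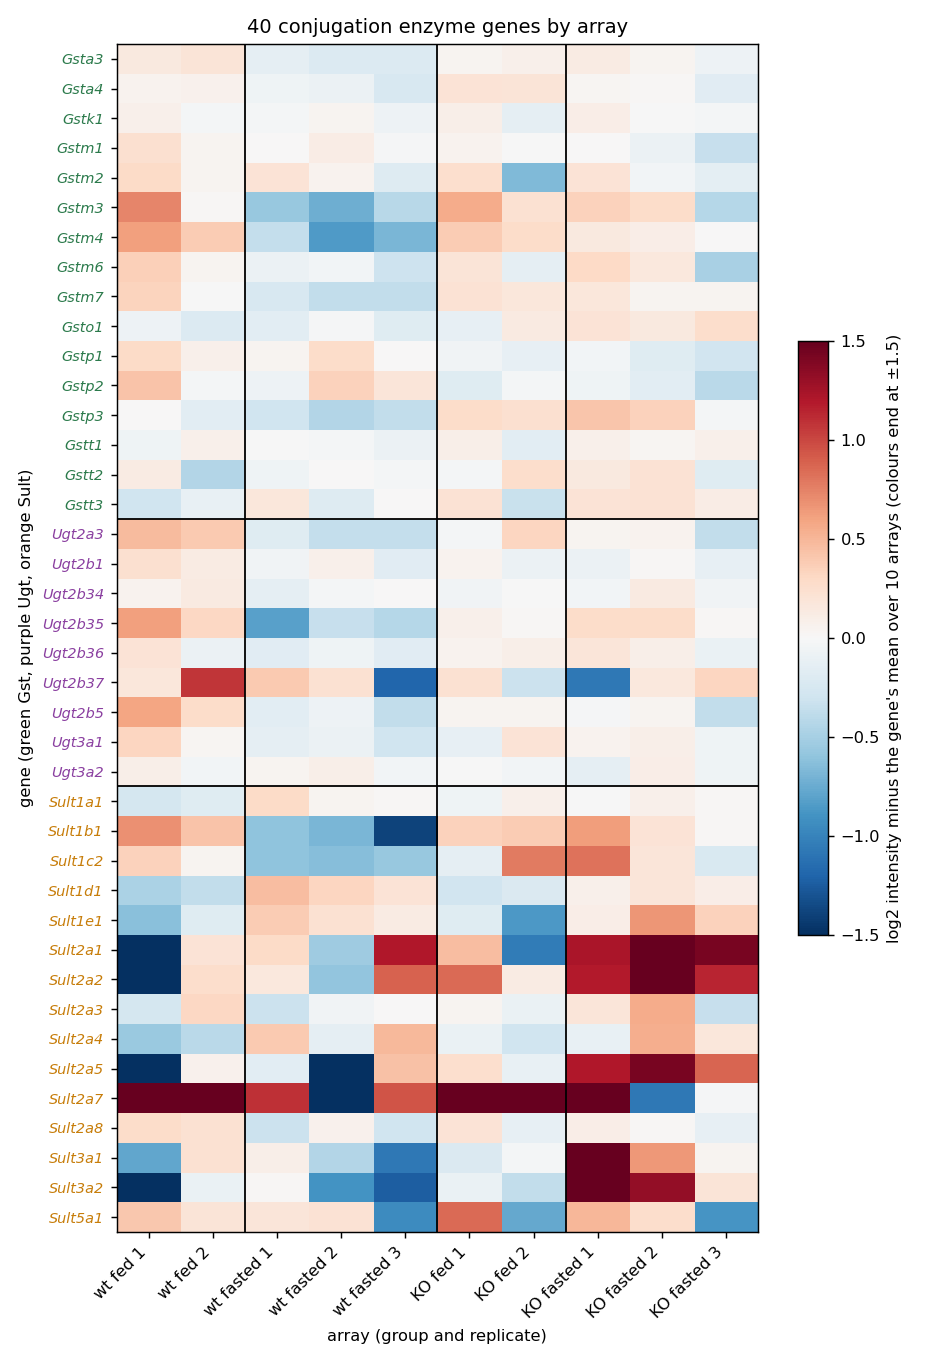
Log2 intensity of the 40 tested genes on each of 10 arrays, minus the gene's mean over those arrays; colours end at ±1.5 and black lines part groups and families. Gstm4, Gstm3, Ugt2b35 and Sult1b1 are low on the 3 fasted wild type arrays, and Sult2a1, Sult2a2 and Sult2a5 are lowest on fed wild type replicate 1, apart from Sult2a7 with a single extreme value on fasted wild type replicate 2.

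In fasted wild type mice 8 conjugation genes were lower and 2 higher than in fed ones, at an adjusted p under 0.05. The genes that fell were Gstm4, Gstm3, Gstm7 and Gsta3 among glutathione transferases, Ugt2b35, Ugt2a3 and Ugt2b5 among UDP-glucuronosyltransferases, and Sult1b1 among sulfotransferases; Sult1d1 and the dim Sult2a4 were higher. That was 10 of 40 genes, beside 21.4% of all genes tested, with 8.23% of all genes called higher and 13.2% called lower. The share was thus near that of the array as a whole. Without Sult2a4, which passed the filter through fasted arrays only, 9 genes were called. The median difference of the 40 genes was -0.17, against -0.02 over all genes tested. Arrays of the fed and fasted groups did not overlap for 21 of the 40 genes, beside 52.7% of all genes. Sult2a4 and Sult1e1, which both passed the filter through fasted arrays only, are among the 21.

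Glutathione transferases of the mu class showed the largest changes of their family. Gstm4 was at 9.52 and 9.29 on the fed arrays and at 8.56, 8.06 and 8.23 on the fasted ones. It fell by 1.13 (SE 0.15, adjusted p = 0.0013), a 2.18-fold lower level, and the groups lay far apart. Gstm3 read 7.71 and 7.001 when fed and 6.41, 6.25 and 6.57 when fasted. Its fed arrays differed by more than the fasted arrays did among themselves, but no array overlapped, and the gene fell by 0.94 (SE 0.26, adjusted p = 0.031). For Gstm7 the fed values were 10.16 and 9.81 and the fasted values 9.58, 9.45 and 9.45. The 3 fasted arrays were below both fed ones, with a fall of 0.49 (SE 0.12, adjusted p = 0.019).

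In the RefSeq order, Gstm7, Gstm6, Gstm3, Gstm2, Gstm1 and Gstm4 lie side by side on chromosome 3 with no other protein-coding gene between them. The other genes of that row did not pass the test: Gstm6 differed by -0.35 (adjusted p = 0.313), Gstm2 by -0.14 (adjusted p = 0.723) and Gstm1 by -0.11 (adjusted p = 0.580). Mu-class genes are close copies of each other, so their probe sets may share signal. Gsta3, an alpha-class enzyme that in mice detoxifies the aflatoxin epoxide, read 11.63 and 11.67 when fed and 11.34, 11.27 and 11.28 when fasted. Its arrays were tight in both groups and apart from each other, and it fell by 0.35 (SE 0.10, adjusted p = 0.031). Gsta4, which conjugates aldehydes of lipid peroxidation, differed by -0.19 (adjusted p = 0.247). The remaining glutathione transferases, of the kappa, omega, pi and theta classes, differed by -0.29 (Gstp3) to 0.20 (Gstt3), and none was called.

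UDP-glucuronosyltransferases act on steroids, bilirubin, bile acids and many drugs. Ugt2b35 was at 10.75 and 10.45 on the fed arrays and at 9.32, 9.79 and 9.71 on the fasted ones. Both fed arrays lay above every fasted array, and the gene fell by 0.99 (SE 0.16, adjusted p = 0.0032). Ugt2a3 read 10.98 and 10.90 against 10.33, 10.15 and 10.15, and fell by 0.73 (SE 0.16, adjusted p = 0.011). Ugt2b5 read 10.45 and 10.13 against 9.70, 9.78 and 9.50. Here too no array overlapped, with a fall of 0.63 (SE 0.16, adjusted p = 0.019). These 3 genes lie in 1 row of Ugt genes on chromosome 5, whose other tested genes Ugt2b34 (-0.15), Ugt2b1 (-0.24), Ugt2b36 (-0.20) and Ugt2b37 (-0.81, SE 0.54) were not called. Ugt3a1 and Ugt3a2, whose enzymes use other sugars than glucuronic acid, differed by -0.35 (adjusted p = 0.105) and 0.00 (adjusted p = 0.999).

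Sulfotransferases moved in both directions. Sult1b1, which sulfates phenols and thyroid hormones, was at 8.99 and 8.73 when fed and at 7.70, 7.62 and 6.92 when fasted. It fell by 1.45 (SE 0.24, adjusted p = 0.0036), to a level 2.73-fold lower, with the third fasted array lowest. Sult1d1, an enzyme for catecholamines and other phenols, went the other way, from 10.58 and 10.69 to 11.51, 11.37 and 11.26. Every fasted array was above every fed one, and Sult1d1 rose by 0.75 (SE 0.11, adjusted p = 0.0018), or 1.68-fold. Sult1b1 and Sult1d1 are direct neighbours on chromosome 5, followed by Sult1e1, the oestrogen sulfotransferase, which differed by 0.65 (adjusted p = 0.073). Sult1e1 was above the array median on fasted arrays only, so its passing the filter already implied a difference, which is given as a value only.

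Sult2a4, of the hydroxysteroid sulfotransferases, was dim: its fed values of 4.82 and 4.97 were under the array median, and its fasted values were 5.76, 5.24 and 5.86. It was above the median on 4 arrays, all of them fasted, so its passing the filter already implied a difference and its call (0.72, SE 0.22, adjusted p = 0.043) is given as a value only. The call was lost in 10 of 20 alternatives. Its fasted mean was 1.09-fold above the mean array median of the fed arrays. Sult1c2 (-0.80, adjusted p = 0.094), Sult2a8, known as a bile acid sulfotransferase of mouse liver (-0.44, adjusted p = 0.065), and Sult1a1, the main phenol sulfotransferase (0.34, adjusted p = 0.060), had separated arrays but were not called.

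Of the 10 genes called, Gstm4, Sult1d1, Ugt2b35 and Sult1b1 passed in the main setting and under all 21 alternatives. Without fasted wild type replicate 3 there were 5 called, beside 15.3% of all genes. Without fed wild type replicate 1, which leaves 1 array in that group, the median difference of the 40 genes was -0.19, beside -0.04 over all genes. Clock genes moved with the same contrast, since 5 of 13 were called, among them Nr1d1 (fell by 3.12, adjusted p = 0.0013) and Cry1 (2.86, adjusted p = 0.0012). Among marker lists of other cells, 2 of 11 macrophage genes were called lower (Adgre1 by 0.57, Csf1r by 0.35), with a list median of -0.19, as were 2 of 9 stellate cell genes (Lrat by 1.04, Col3a1 by 0.67), with a list median of 0.07. In the endothelial list 1 of 10 genes was called, Pecam1 (higher by 0.45), with a list median of 0.07. In the intestinal list 1 of 4 was called, Lgals4 (higher by 2.06), with a list median of 0.02. The summed macrophage markers were 4468 and 5590 on the fed and 4240 to 4442 on the fasted wild type arrays, and the summed stellate markers 6131 and 6260 against 6509 to 7405. The part of any of these in the conjugation gene differences was not tested.

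**Figure D2:**
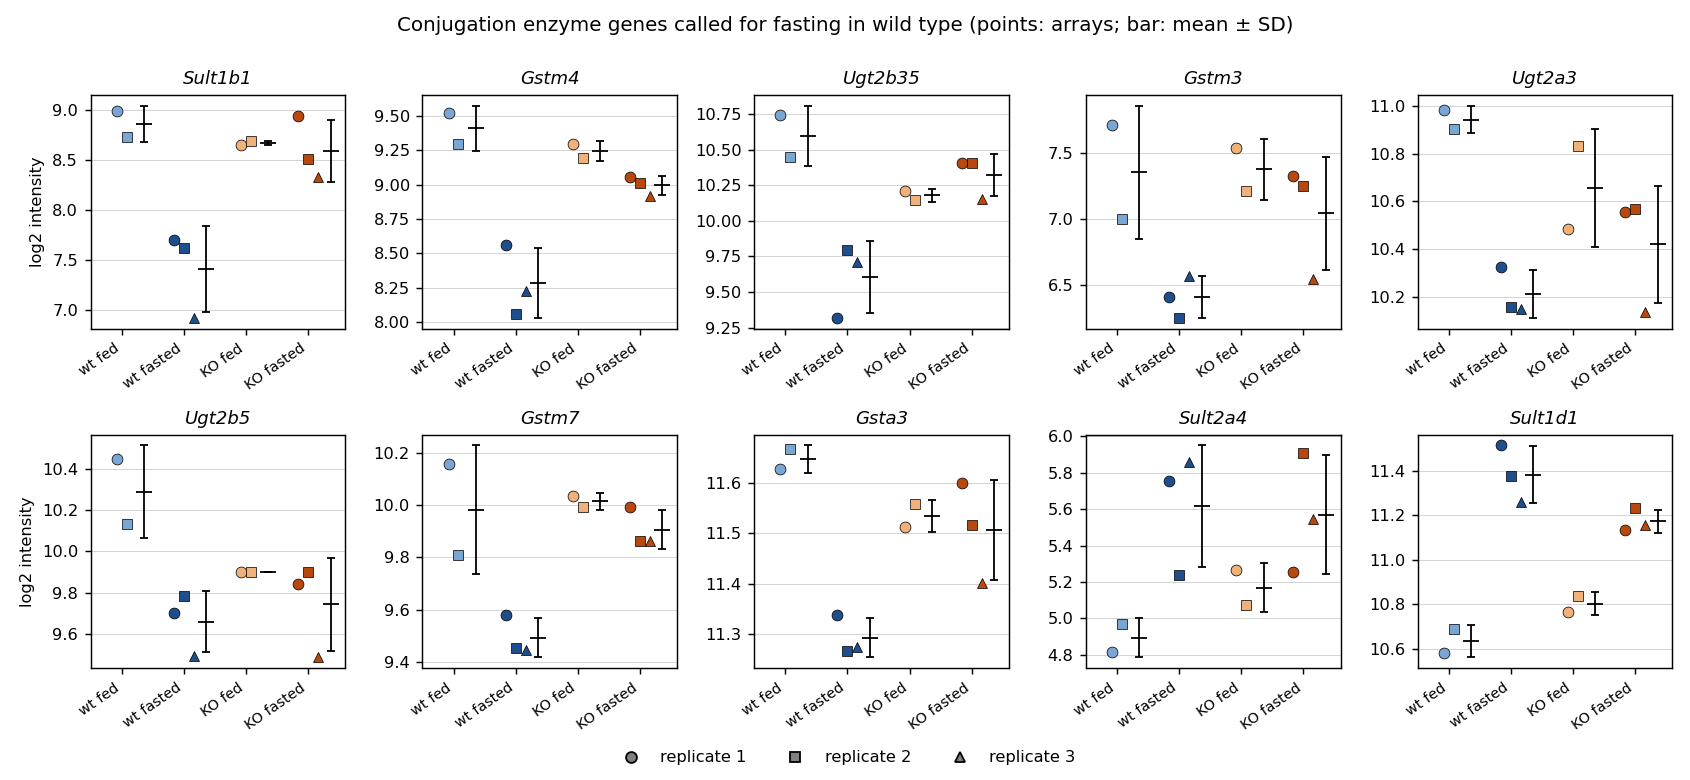
Log2 intensity on each array (points, shape by replicate number) for the 10 genes called for fasting in wild type, with mean ± SD beside each group; axes differ between panels and do not start at 0. Sult1b1 sits at 8.99 and 8.73 in fed wild type, at 7.70, 7.62 and 6.92 after fasting, and between 8.33 and 8.94 on all 5 knockout arrays.

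Promoter sequences are shown for the 3 called genes that fell most, for Sult1d1, the called gene that rose most, and for Gsta3, a called gene whose window holds a motif match. The neighbours Sult1b1 and Sult1d1 moved apart. They are the 250 bases before the transcription start from RefSeq (build GRCm38.p6), 5′ to 3′ on the strand of the gene. Capitals mark matches to the motifs searched, on either strand.
Sult1b1 (chr5:87538196-87538445, minus strand): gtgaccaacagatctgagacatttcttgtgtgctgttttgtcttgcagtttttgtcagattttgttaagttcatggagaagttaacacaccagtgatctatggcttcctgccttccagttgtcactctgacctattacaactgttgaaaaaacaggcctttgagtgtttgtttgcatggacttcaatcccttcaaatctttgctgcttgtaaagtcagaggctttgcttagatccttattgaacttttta
Sult1d1 (chr5:87569007-87569256, minus strand): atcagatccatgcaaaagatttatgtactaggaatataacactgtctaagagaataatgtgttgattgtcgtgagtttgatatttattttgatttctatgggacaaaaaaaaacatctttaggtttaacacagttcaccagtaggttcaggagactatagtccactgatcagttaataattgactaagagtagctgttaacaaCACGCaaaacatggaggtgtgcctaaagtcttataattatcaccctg
Gstm4 (chr3:108044860-108045109, minus strand): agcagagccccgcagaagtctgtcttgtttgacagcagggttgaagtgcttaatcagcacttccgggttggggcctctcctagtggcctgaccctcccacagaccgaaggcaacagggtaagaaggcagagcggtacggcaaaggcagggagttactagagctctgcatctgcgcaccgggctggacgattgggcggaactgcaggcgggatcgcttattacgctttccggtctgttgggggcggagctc
Ugt2b35 (chr5:87000610-87000859, plus strand): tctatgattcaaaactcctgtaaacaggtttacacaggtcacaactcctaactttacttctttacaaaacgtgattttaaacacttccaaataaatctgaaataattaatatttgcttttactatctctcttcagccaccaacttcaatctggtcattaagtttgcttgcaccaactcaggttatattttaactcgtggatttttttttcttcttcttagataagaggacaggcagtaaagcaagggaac
Gsta3 (chr1:21240335-21240584, plus strand): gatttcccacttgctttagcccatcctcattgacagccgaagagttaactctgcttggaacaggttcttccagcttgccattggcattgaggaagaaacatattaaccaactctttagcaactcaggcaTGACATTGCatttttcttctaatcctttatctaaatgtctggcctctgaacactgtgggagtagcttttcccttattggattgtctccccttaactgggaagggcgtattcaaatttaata
The motifs were TGACNNNGC (the core of the antioxidant response element), CACGTG (the E-box), TTANGTAA (the D-box) and GCGTG (the core of the aryl hydrocarbon receptor element); the last may overlap the E-box at its edge. Windows were listed for 42 of the 49 genes, and the outermost start was taken for the 9 genes with several. The antioxidant response element core was found in the window of Gsta3, and among all 42 windows in that of this gene only (2.4%), beside 10.2% of 32851 windows of the same length in the table. The aryl hydrocarbon receptor core was found in 4 windows (9.5%, beside 28.2%), those of Gstm1, Gstp1, Gstp3 and Sult1d1. The D-box was found in 2 (4.8%, beside 2.1%), those of Sult1a1 and Ugt2b1, and the E-box in 0, beside 6.0% of all windows. The GC content of the printed windows ran from 33.6% for Ugt2b35 through 34.0% for Sult1d1, 39.2% for Sult1b1 and 42.0% for Gsta3 to 59.6% for Gstm4, with a median of 43.8% over the 42 windows and of 52.4% over all. A match is a description of letters and no evidence that a factor binds there.

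Fasting of knockout mice gave no call among the 40 genes by limma at an adjusted p under 0.05, beside 1.68% of all genes tested; 4 genes had an unadjusted p under 0.05. The median difference was -0.01, against 0.01 over all genes, and 12 of 40 genes had arrays that did not overlap, beside 36.8% of all genes. The same 2 fed knockout arrays enter this contrast and the fed comparison of genotypes. Sult1e1 read 5.50 and 4.82 when fed and 5.78, 6.34 and 6.02 when fasted. All 3 fasted values were above both fed ones, with a difference of 0.89 (SE 0.23, adjusted p = 0.082). Sult1e1 passed the filter through fasted arrays only. Its separation, counted among the 12, was thus in part implied by the filter and is given as a value only. Sult1d1 read 10.77 and 10.84 against 11.13, 11.23 and 11.16, the same direction as in wild type, with a difference of 0.37 (SE 0.11, adjusted p = 0.113). With moderation by trend and robust variance 1 of the 40 genes was called, beside 3.61% of all genes.

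The genes that fell in fasted wild type liver had differences nearer 0 in the knockout. They were chosen for their wild type difference, which can by itself leave a smaller difference in the other genotype. The interaction given further on tests that gap, with the same wild type arrays. Sult1b1 read 8.66 and 8.69 in fed and 8.94, 8.51 and 8.33 in fasted knockout liver, a difference of -0.08 with a 95% interval of -0.62 to 0.47. Its fasted arrays lay on both sides of the fed ones. Gstm4 read 9.30 and 9.20 against 9.06, 9.01 and 8.92, a difference of -0.25 (95% interval -0.58 to 0.08). The fasted arrays of this gene were all below the fed ones, by less than in wild type. Ugt2b35 read 10.21 and 10.15 against 10.41, 10.40 and 10.15, a difference of 0.14 (95% interval -0.22 to 0.51). Gstm3 (-0.33), Ugt2a3 (-0.24), Ugt2b5 (-0.16), Gstm7 (-0.11) and Gsta3 (-0.03) had the sign of the wild type difference and were not called. Gsta4 differed by -0.24 (adjusted p = 0.255) and Sult2a4 by 0.40 (adjusted p = 0.356).

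**Figure D3:**
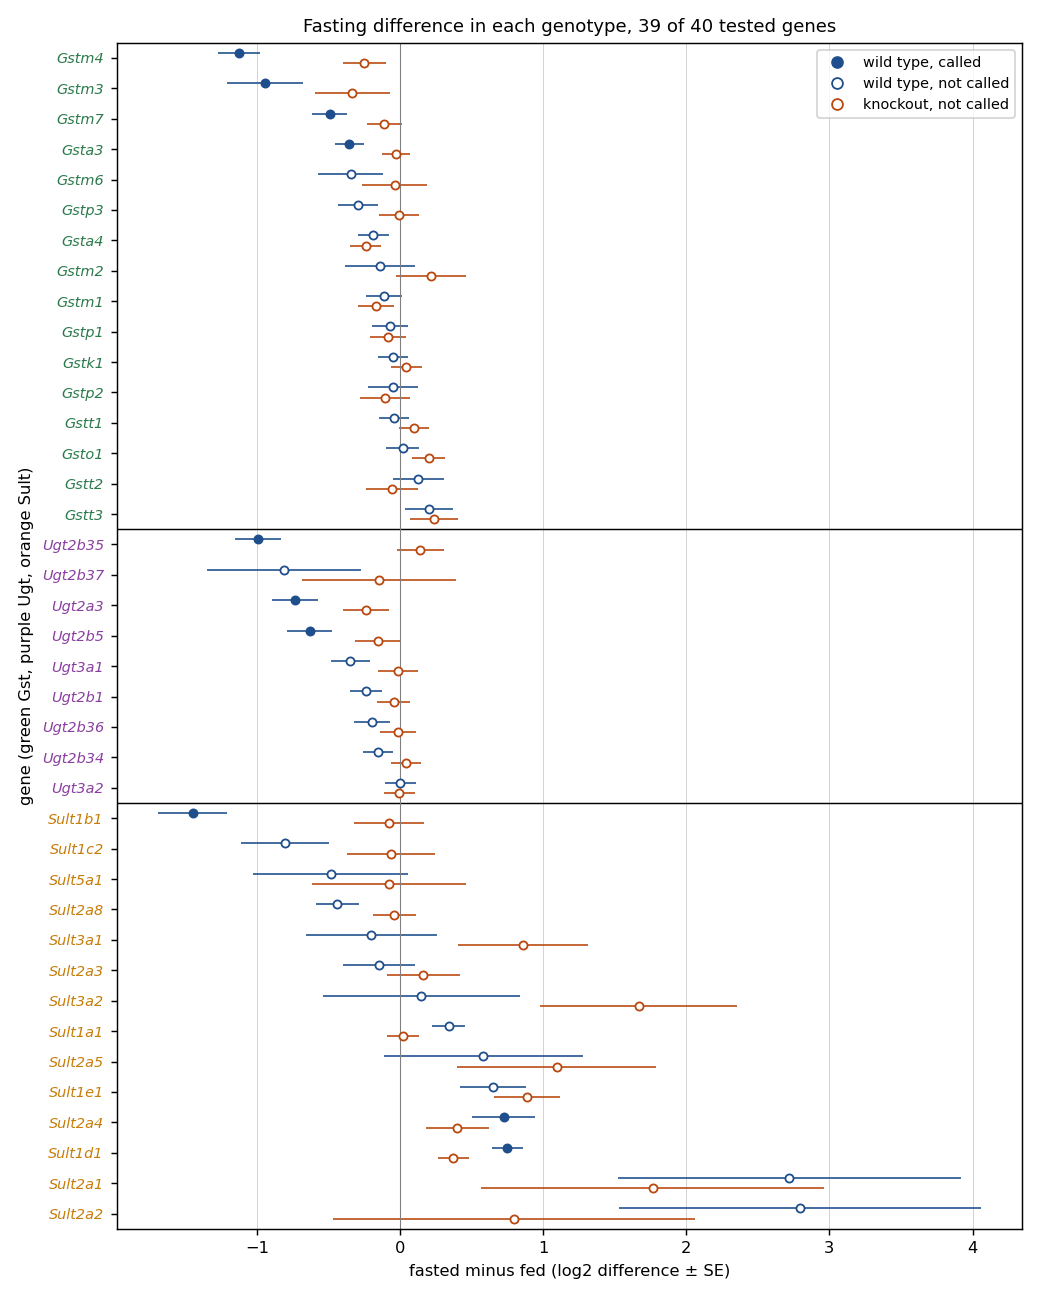
Fasted minus fed log2 difference ± SE in wild type (blue) and knockout (orange) for 39 of the 40 tested genes, by family; filled points were called and Sult2a7 is not drawn. Sult1b1, Gstm4 and Ugt2b35 stand at -1.45, -1.13 and -0.99 in wild type and at -0.08, -0.25 and 0.14 in the knockout.

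The genotype by fasting interaction asks whether the fasting difference itself differed between knockout and wild type. It was called for 1 of 40 genes, beside 2.11% of all genes (1.32% in the higher direction), and 5 genes had an unadjusted p under 0.05. The gene was Ugt2b35, with a fasting difference 1.13 higher in the knockout than in wild type (SE 0.23, adjusted p = 0.043). The call held in 8 of 20 alternatives and in 1 of the 10 omissions of an array. Gstm4 (0.88, adjusted p = 0.064) and Sult1b1 (1.37, adjusted p = 0.071) were next by p. They were followed by Sult1d1 (-0.38, adjusted p = 0.207), Gsta3 (0.33, adjusted p = 0.233) and Gstm7 (0.38, adjusted p = 0.254). For 8 of 40 genes the differences between fasted and fed arrays did not overlap between genotypes, beside 22.4% of all genes. By size alone the 6 largest were Sult2a7 (3.94, SE 4.70), Sult2a2 (-2.001, SE 1.79), Sult3a2 (1.52, SE 0.97), the Sult1b1 and Ugt2b35 already given, and Sult3a1 (1.06, SE 0.64). The errors of the Sult2a and Sult3a genes left each without a call.

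Between fed knockout and fed wild type liver no conjugation gene was called by limma (0 of 40, beside 0.0861% of all genes); 3 had an unadjusted p under 0.05. The median was -0.05, against -0.02 over all genes, and 14 of 40 genes had arrays without overlap, beside 39.9% of all genes. Ugt2b35 had the smallest p: its fed wild type arrays read 10.75 and 10.45 and its fed knockout arrays 10.21 and 10.15, a difference of -0.42 (SE 0.18, adjusted p = 0.554). Ugt2b5 read 10.45 and 10.13 against 9.90 and 9.90, a difference of -0.39 (SE 0.17, adjusted p = 0.572). In both genes the 2 knockout arrays were closer together than the wild type ones. Gstp1 differed by -0.27 (adjusted p = 0.650), Gstp3 by 0.34 (adjusted p = 0.590) and Sult1a1 by 0.23 (adjusted p = 0.681). Sult2a2 differed by 3.13 (adjusted p = 0.572) with fed wild type replicate 1 and by 0.22 without it. Without fed wild type replicate 2 the fit called Sult2a2, but that arm then held the outlying array alone, with its spread taken from the other groups.

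Between fasted knockout and fasted wild type liver 5 of 40 genes were called, all higher in the knockout, beside 11.1% of all genes (6.68% in the higher direction). They were Sult1b1, Gstm4, Ugt2b35, Gstp3 and Gstm7. The median of the 40 genes was 0.18, against 0.01 over all genes, and 16 had arrays without overlap, beside 33.0% of all genes. This comparison shares its fasted wild type arrays with the fasting contrast of wild type, in which 4 of the 5 had fallen.

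Sult1b1 read 7.70, 7.62 and 6.92 in wild type and 8.94, 8.51 and 8.33 in knockout liver. The lowest knockout array was above the highest wild type one, and the gene was higher by 1.18 (SE 0.22, adjusted p = 0.013), or 2.27-fold. Gstm4 read 8.56, 8.06 and 8.23 against 9.06, 9.01 and 8.92, higher by 0.71 (SE 0.13, adjusted p = 0.013). Ugt2b35 read 9.32, 9.79 and 9.71 against 10.41, 10.40 and 10.15. It was higher by 0.71 as well (SE 0.15, adjusted p = 0.018), again with no overlap. Gstm7 read 9.58, 9.45 and 9.45 against 9.99, 9.86 and 9.86, higher by 0.41 (SE 0.11, adjusted p = 0.040). The Gstm7 call was lost in 12 of 21 alternatives, 8 of the 10 omissions of an array among them.

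Gstp3 was the called gene that had not been called for fasting in wild type. It encodes a pi-class glutathione transferase, next to Gstp2 and Gstp1 on chromosome 19. Its wild type arrays read 8.39, 8.25 and 8.32 and its knockout arrays 9.11, 9.04 and 8.67, higher by 0.62 (SE 0.13, adjusted p = 0.017). Gstp1 read 11.06, 11.29 and 11.03 in wild type and 10.98, 10.84 and 10.73 in knockout liver. It pointed the other way, with -0.28 (adjusted p = 0.139), as did Gstp2 with -0.36 (adjusted p = 0.163). In the fed groups the signs were the same for Gstp3 (0.34), Gstp1 (-0.27) and Gstp2 (-0.30), none of them called.

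The fasted genotype comparison rested on the knockout arrays unequally. Without fasted knockout replicate 1 it called 1 gene, Sult1b1, and without replicates 1 and 2, those apart by clock genes, it called 0 of 40 and 6 genes of the whole array. In that last fit, which assumes that the lone fasted knockout array varies like the other groups, Sult1b1 differed by 0.92, Ugt2b35 by 0.55 and Gstp3 by 0.34. Without fasted knockout replicate 3 it called 8, beside 10.8% of all genes. Without fasted wild type replicate 2 it called 3 (5.33% of all genes), and without fasted wild type replicate 3 it called 2 (3.84%). The share of all genes was 3.12% without fasted knockout replicate 1 and 11.1% with all arrays. Macrophage markers moved with the same comparison: the summed intensity of 11 markers was 4240 to 4442 in the fasted wild type group against 5095 to 5863 in the fasted knockout group, and 4 of 11 were called higher. Their part in the conjugation gene differences was not tested. The summed hepatocyte markers were 46500 to 47610 and 45710 to 48850 in the same groups.

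Each array was placed between fed wild type (0%) and fasted wild type (100%) for each of the 10 genes called there. The wild type arrays lie near the ends by construction, because they define them. The genes were also chosen for their difference between those arrays, which can by itself place other arrays between the ends. They include Sult2a4, whose call is given as a value only. The median place of the fed knockout arrays was 27.9% and 21.9%, and that of the fasted knockout arrays 25.3%, 36.1% and 69.5%. Over all 2990 genes called in the same contrast the fed knockout arrays were at 19.1% and 12.8% and the fasted ones at 31.2%, 48.0% and 53.7%. By both medians fasted knockout replicate 3 was the nearest to fasted wild type. Over the 10 genes replicate 1 lay between the fed knockout arrays, and over the 2990 genes it lay past both. Genes differed: Sult1d1 stood at 66.5%, 79.6% and 69.7% on the fasted knockout arrays, while Sult1b1 stood at -5.33%, 24.3% and 36.7%. Gstm3 reached 85.1% on replicate 3 and 3.09% and 10.7% on replicates 1 and 2.

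**Figure D4:**
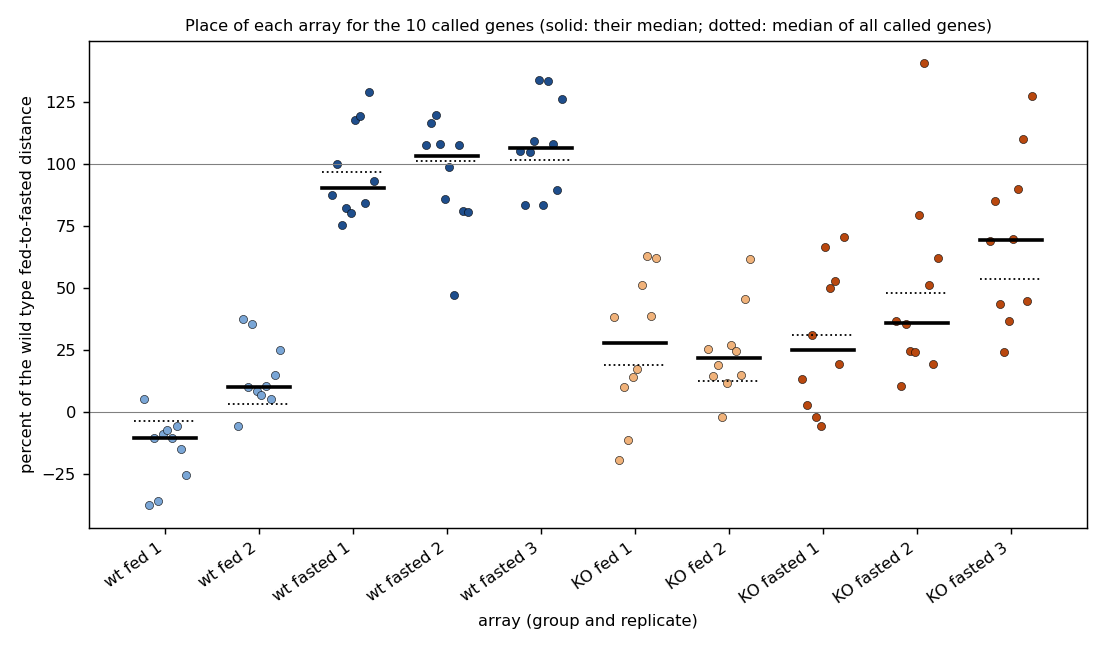
Place of each array on the distance from fed (0%) to fasted (100%) wild type for the 10 genes called there (points), with their median (solid) and the median of the 2990 genes called (dotted). Fasted knockout replicates lie at medians of 25.3%, 36.1% and 69.5%, and wild type arrays lie at the ends by construction.

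Of the hydroxysteroid sulfotransferases of female mouse liver, Sult2a1, Sult2a2 and Sult2a5 varied widely, and their differences from the fed wild type group rested on 1 array. In wild type liver Sult2a1 read 3.88 and 9.10 fed and 9.18, 8.36 and 10.10 fasted; in knockout liver it read 9.36 and 7.84 fed and 10.11, 10.67 and 10.32 fasted. Fed wild type replicate 1 was therefore below the array median for a gene that lay between 7.84 and 10.67 everywhere else. Sult2a2 showed the same: 4.22 on that array, 10.04 on the other fed wild type array, 9.94, 9.18 and 10.66 in the fasted wild type group, 10.63 and 9.90 in the fed knockout group, and 10.97, 11.28 and 10.92 after fasting of the knockout. Sult2a5 read 4.22 and 6.51, then 6.29, 4.67 and 6.88, then 6.70 and 6.33, and 7.64, 7.87 and 7.31 in the same order of groups. These genes are near-identical paralogs that lie next to each other on chromosome 7, so their probe sets may measure the same transcripts.

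The fasting difference of Sult2a1 in wild type was 2.72 (SE 1.20, adjusted p = 0.136) with all arrays, 0.11 without fed wild type replicate 1 and 5.33 without replicate 2. That of Sult2a2 was 2.80 (adjusted p = 0.146) with all arrays, and -0.11 and 5.71 under the same omissions. In the fasted groups, which do not hold that array, all 3 knockout arrays were above all 3 wild type arrays for Sult2a1, Sult2a2 and Sult2a5. The differences there were 1.15 (adjusted p = 0.519), 1.13 (adjusted p = 0.555) and 1.66 (adjusted p = 0.112), none of them called. The spread behind these p-values is pooled over all arrays, the outlying one included, and the lowest adjusted p over the alternatives was 0.110, 0.069 and 0.059.

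Sult3a1 and Sult3a2 are a pair of neighbours on chromosome 10. Fed wild type replicate 1 was the lowest array for Sult3a2. For Sult3a1 it was low too, at 8.77, but fasted wild type replicate 3 was lower, at 8.48. The wild type arrays of Sult3a2 read 6.23 and 7.74 fed and 7.86, 6.95 and 6.60 fasted; its knockout arrays read 7.74 and 7.48 fed and 10.62, 9.17 and 8.03 fasted. All 3 fasted knockout arrays were above every other array. Against fasted wild type the difference was 2.14 (SE 0.62, 95% interval 0.76 to 3.52, adjusted p = 0.0535), and 1.46 (adjusted p = 0.158) without fasted knockout replicate 1; the gene was called under 6 of 21 alternatives. Sult3a1 read 8.77 and 9.78, then 9.64, 9.11 and 8.48, then 9.34 and 9.52, and 11.07, 10.21 and 9.59 in the same order. Its fasted genotype difference was 1.21 (SE 0.41, adjusted p = 0.084), with the lowest knockout array under the highest wild type one. Fasting in the knockout gave 1.67 (adjusted p = 0.228) for Sult3a2 and 0.86 (adjusted p = 0.342) for Sult3a1. Sult2a7 had an isolated value of -9.24 on fasted wild type replicate 2, beside 2.11 to 5.72 on the other arrays, so its differences carried errors of 2.97 to 4.70.

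**Figure D5:**
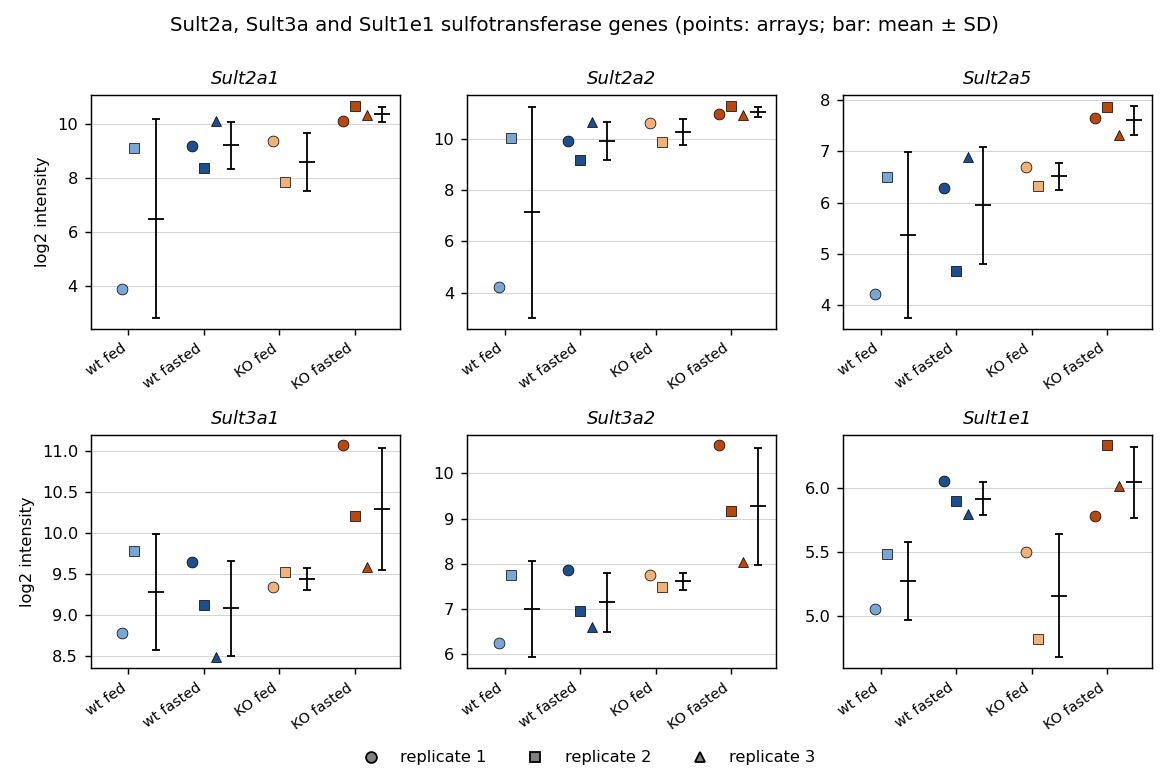
Log2 intensity on each array (points, shape by replicate number) for Sult2a1, Sult2a2, Sult2a5, Sult3a1, Sult3a2 and Sult1e1, with mean ± SD beside each group; axes differ between panels and do not start at 0. Sult2a1 and Sult2a2 read 3.88 and 4.22 on fed wild type replicate 1 and at least 7.84 and 9.18 elsewhere.

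Among sex-biased liver genes outside the conjugation families, the female-predominant A1bg was at 7.75 on fed wild type replicate 1 and at 9.82 on replicate 2, and Cyp2b9 was at 12.51 and 12.45. The male-predominant Hsd3b5 was at 10.48 and 9.99 on the fed wild type arrays and at 4.35 to 8.04 on the others. These genes were picked from 10 tested sex-biased genes after their values were seen. The source of the low Sult2a1 and Sult2a2 values on fed wild type replicate 1 was not tested.

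Genes that supply or use the same pathways were taken as lists. Over all genes 8.23% were called higher and 13.2% lower in fasted wild type liver, against which the small lists below are to be read. For glutathione supply, 3 of 16 tested genes rose and 3 fell. Pgd, which makes NADPH, fell by 1.04 (adjusted p = 0.0011), Chac2, a glutathione-degrading enzyme, fell by 0.67 (adjusted p = 0.0060), Oplah of the glutathione cycle rose by 0.91 (adjusted p = 0.0019) and Glrx, glutaredoxin, rose by 0.76 (adjusted p = 0.0029). For UDP-glucuronate supply and glucuronide hydrolysis, 0 rose and 3 of 9 fell: Ugp2, which makes UDP-glucose, by 1.02 (adjusted p = 0.0030), Uxs1 by 0.74 (adjusted p = 0.017) and Pgm2 by 0.52 (adjusted p = 0.016). For PAPS supply, sulfate transport and sulfatases, 0 rose and 5 of 14 fell, among them the PAPS synthase Papss1 (fell by 1.38, adjusted p = 0.0023). Papss1 was under the array median on every fasted array, and its fed mean was 1.515-fold above the mean of those medians. Tpst1, which sulfates tyrosines of proteins, fell by 0.93 (adjusted p = 0.0036), Sumf2 by 0.87 (adjusted p = 0.0096) and the sulfate carrier Slc26a1 by 0.76 (adjusted p = 0.0098).

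The median differences of these lists in fasted wild type liver were 0.00 for glutathione supply, -0.39 for UDP-glucuronate and -0.23 for PAPS, beside -0.02 over all genes. In fasted knockout liver none of the tested genes of those 3 lists was called by limma, while 6, 1 and 5 of them had an unadjusted p under 0.05. Over all genes 1.68% were called in that contrast, against which the knockout calls below are also to be read. Conjugate export had 1 higher and 2 lower of 11 in wild type. Abcc3, an exporter of glucuronides into blood, rose by 0.69 (adjusted p = 0.0043), Abcc6 fell by 0.66 (adjusted p = 0.0032) and the uptake carrier Slco2b1 fell by 0.54 (adjusted p = 0.029). Abcc6 fell in the knockout as well, by 0.65 (adjusted p = 0.032). Microsomal and other members of the glutathione transferase superfamily had no call among 12 in wild type by limma (4 at an unadjusted p under 0.05), and 1 lower in the knockout: Ptgds, a prostaglandin synthase, by 1.54 (adjusted p = 0.032). Other conjugation enzymes had 2 higher and 2 lower of 16 in wild type, Ephx2 (0.72), Ces1d (0.53), Acsm5 (-0.59) and Acsm1 (-0.37), and none in the knockout, where 3 had an unadjusted p under 0.05.

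Regulators of conjugation enzymes had 5 higher and 4 lower of 21 in fasted wild type liver, beside the 21.4% of all genes called there. Cebpb, a factor of the acute phase response, rose by 1.91 (adjusted p = 0.00059) and Nr1i2, the pregnane X receptor that senses drugs and bile acids, rose by 0.90 (adjusted p = 0.00069). Bcl6, a repressor tied to sex-biased liver genes, fell by 0.98 (adjusted p = 0.0032) and Ahr, the aryl hydrocarbon receptor, fell by 0.83 (adjusted p = 0.0058). In the knockout 1 of 21 was called, beside 1.68% of all genes: Bcl6, which fell by 1.60 (adjusted p = 0.0080). Nfe2l2, which encodes the regulator NRF2 of many glutathione genes, differed by 0.16 (adjusted p = 0.497) in wild type and by -0.27 (adjusted p = 0.357) in the knockout.

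There were 9 probe sets of the same families with several symbols, which cannot be assigned to a single gene and were not tested. A probe set shared by the Ugt1a genes, which use a common set of last exons, averaged 10.85 (wild type fed), 10.76 (wild type fasted), 10.92 (knockout fed) and 10.83 (knockout fasted). The Gsta1 and Gsta2 probe set with the brightest signal averaged 8.93, 8.58, 9.44 and 9.27 in the same order, with SDs of 0.01 to 0.59. The Gstm5 probe set averaged 8.60, 8.18, 8.43 and 8.52. The Gstz1 probe set averaged 11.80, 11.78, 11.86 and 11.88.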

How the data were processed

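Liver RNA of 10 samples was hybridised to Affymetrix Mouse Gene 2.1 ST arrays. The deposited intensity of each probe set is linear. Per the submitters' processing notes, Affymetrix Expression Console and RMA were used; the sources used here give no version and no build. Some deposited intensities lie far under 1 (Sult2a7 at 0.00165 on 1 array), which RMA rarely gives, so the summary method behind them is unsure. Groups and replicate numbers came from sample titles. The log2 of the intensity was taken with no further normalization. Of 41345 probe sets, 23521 had 1 gene symbol, 1814 several and 16010 none; all 49 conjugation genes matched RefSeq symbols. Probe sets above the array median (percentile 50) on at least 2 arrays were kept and the brightest stood for its gene. A linear model of 4 group means over all 10 arrays was fitted in limma 3.58.1 under R 4.3.3 (lmFit, eBayes; prior degrees of freedom 3.63, residual 6). Benjamini-Hochberg adjustment of p-values ran over all 13942 genes of each of 5 contrasts, with calls at 0.05. No batch or pairing is given, and replicate numbers were not used as pairs in this fit.

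Named were all called genes, up to 6 genes of smallest p where fewer were called, the 5 brightest of each family, the largest interactions and up to 4 called genes of a pathway list; genes named outside that rule (the Gstp and Sult2a neighbours, Nfe2l2, A1bg, Cyp2b9, Hsd3b5 and probe sets with several symbols) were chosen after their values were seen. Members and lists were chosen with earlier results of these data known. The fitting was tested on simulated data. Alternatives were other scalings, filters, offsets, probe set means, moderation, array weights, a replicate block, fits of single contrasts and the omission of arrays.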

Additional observations from a re-analysis of the deposited data

Results flagged for a closer look

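Ugt2b35 was singled out because its fasting difference differed between the genotypes by a test of the difference itself. The interaction was 1.13 on the log2 scale (SE 0.23, adjusted p = 0.043): -0.99 in wild type and 0.14 in the knockout, where fasted minus fed covered 3 and 2 arrays. The adjusted p ran from 0.015 to 0.147 over 20 alternatives, and the direction held in all of them. In fed liver the gene read 10.75 and 10.45 in wild type and 10.21 and 10.15 in the knockout. The interaction estimate thus combines a fasted genotype difference of 0.71, which was called, and a fed one of -0.42, which was not.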

How the results depend on the processing

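With 2 or 3 arrays a group, calls depended on single arrays. The 16 calls on single genes and 40 other named differences gave 1160 values under alternatives: 1078 kept their side of the threshold, 65 lost a call, 17 gained one and no called value changed sign. Of the 1078, 15 changed sign, over 11 uncalled differences of Sult2a or Sult3a genes. Members called for fasting in wild type numbered 10, and 4 to 10 when arrays were left out in turn; with the replicate block there were 7 (all among the 10). The share of all genes in that contrast was 15.2% to 22% when a single fasted array was left out, and 16.1% with the replicate block. For fasting in the knockout, trend and robust moderation gave 1, beside 3.61% of all genes. For knockout against wild type when fed, omissions gave 0 to 1; when fasted, 1 to 8, and 0 without fasted knockout replicates 1 and 2. For that fasted comparison the share of all genes was 3.12% to 10.8% when a single fasted array was left out. The interaction count of 1 (2.11% of all genes) became 2 with log2(intensity + 16) (3.04%) and 2 with trend and robust moderation (3.73%). It was 0 of 49 with no filter (0.018%) and 3 of 36 with the stricter filter (5.46%). When a single fasted array was left out it was 0 to 1 (0.287% to 2.58%). The Pml level, averaged over feeding, differed by -1.62 (-1.74 to -1.49 over single omissions), and by -1.64 without fasted knockout replicates 1 and 2, no longer past the threshold. Causes were not tested, beyond fewer arrays. Deviations from the group means correlated with r of -0.173 to 0.105 over 13 same-numbered pairs of arrays, and of -0.146 to 0.173 over 24 other pairs. In a group of 2 arrays the deviations mirror each other, so these values cannot tell whether replicate numbers pair samples. The replicate block gave 0 members for fasting in the knockout and for the fed comparison, 6 for the fasted one (5 of them as without it), 1 for the interaction (not Ugt2b35), and -1.62 for the Pml level.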
